A study of Mus musculus with 9 samples.

Results

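The gelsolin and villin family was examined in mouse bone-marrow-derived mast cells through all 12 probes annotated to Avil, Scin, Gsn, Capg, Flii, Svil or Vil1, of 25697 probes on the array. The 7 genes were listed by their membership of the protein family, and the members that depend on AhR, the aryl hydrocarbon receptor, were picked out by their signal in AhR null against control cells. That contrast is therefore given as a description: the SEs there describe spread, and no p-value of a member is given in it. Signal was measured on 9 Illumina mouse Ref-8 beadchips, which read biotin-labelled RNA in 1 colour on beads that each carry a gene probe. There were 3 arrays each of normal control, AhR-d and AhR null cells, all labelled as strain C57BL/6J, and each of 3 culture batches held 1 array of every genotype. AhR is a ligand-activated transcription factor, AhR null cells lack it, and the d allele is known for a receptor with weaker ligand binding. All cultures had 4 weeks in medium with 30% supernatant of the IL-3-secreting line WEHI-3, removal of other cells with magnetic beads, and 4 h without cytokines. The origin of the 2 altered alleles and of the DNA beside them, and the age and number of animals behind a batch, are not given in the sources used here, so p-values cover only how far these cultures differ from each other.

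Proteins of this family are built from repeated gelsolin domains that bind actin, and many of them cut actin filaments or cap their fast-growing ends when calcium rises. Villin, advillin and supervillin also carry a headpiece at the carboxyl end, which in villin binds filaments. In mast cells the actin layer under the plasma membrane is known to be remodelled when granules are released, which makes regulators of this kind part of the secretory machinery.

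Of the 7 genes, 5 passed the filter on dim probes (a detection p-value under 0.01 on at least 3 of 9 arrays). Avil stood far above background in control and AhR-d cells and was not detected in AhR null cells, Scin was bright on every array and lower in AhR null, and Capg, Flii and Svil gave small differences. Gsn, which encodes gelsolin itself, and Vil1, which encodes villin of intestinal microvilli, were not detected on any array. The Gsn detection p-values ran from 0.0263 to 0.558 and those of Vil1 from 0.727 to 0.991. An undetected probe gives an upper bound on signal at that probe, not a measurement of 0.

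Across the whole data set, mean raw signal ran from 324 to 527 on control, 338 to 684 on AhR-d and 523 to 636 on AhR null arrays, so the AhR null arrays tended to be brighter before normalisation. The only Ahr probe was not detected on any array, so Ahr itself gave no check of the labels. Of 12 mast cell markers with a probe (among them Fcer1a, Cpa3 and Hdc), 10 to 12 were detected on every array, and of 7 fibroblast markers 0 or 1. Of the 12 mast cell markers, 5 were called higher in AhR null than in control, where 6.56% of all features were. Mrgprb1, among these 5, was detected on 0 control, 2 AhR-d and 3 AhR null arrays, so it passed the filter only through the genotypes in which it was higher. Values below are background-corrected, quantile-normalised log2 signals unless raw signal is named. A level of one probe is not comparable with that of another.

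Avil encodes advillin, the member closest to villin, a calcium-regulated actin-binding protein known best from sensory neurons. Its level was 12.27, 11.86 and 12.48 in control batches 1 to 3, 11.10, 9.16 and 10.93 in AhR-d, and 5.26, 4.65 and 5.45 in AhR null. All control arrays lay above all AhR-d arrays, and all AhR-d arrays lay above all AhR null arrays. Groups did not overlap, in either direction, for 10.5% of all features in AhR-d against control. The share was 34.3% in AhR null against control and 23.5% in AhR null against AhR-d. Raw signal ran from 3193 to 4091 in control and from 170 to 218 in AhR null, where the lowest detection p-value was 0.0301. The group means were 12.20 ± 0.32 for control, 10.40 ± 1.07 for AhR-d and 5.12 ± 0.42 for AhR null (SD, n = 3).

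**Figure D1:**
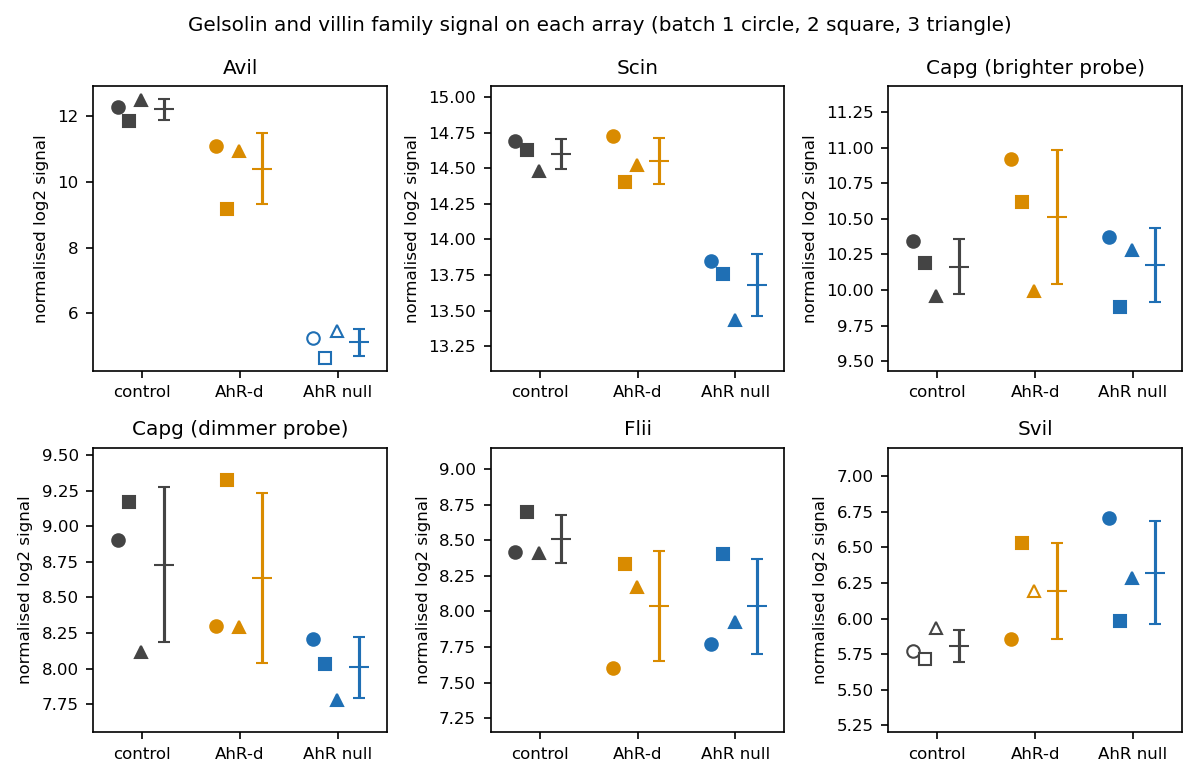
Normalised log2 signal (y axis) of the 6 family probes that passed the filter on each array, by genotype (x axis), with culture batch as the symbol and the mean ± SD of 3 arrays as a bar beside the points. Open symbols mark arrays with a detection p-value of at least 0.01. Avil lies between 11.86 and 12.48 in control and between 4.65 and 5.45, undetected, in AhR null, and Scin is lower on the 3 AhR null arrays than on any other array.

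In AhR null against control, Avil gave log2 differences of -7.01, -7.21 and -7.03 in batches 1 to 3. Because AhR null arrays gave only a bound, the size is given as a bound, which sets control against the higher of the probe's own signal and the lowest detected signal on each AhR null array. The bound was at least 90.3-fold lower with the offset of 16, but at least 55.1-fold with an offset of 50 and at least 22.6-fold with no background correction, 2 settings added after the values were seen. It does not cover the spread between arrays. The fitted difference of -7.08 was the largest of 7449 features in this fit, and it likewise moved to -6.10 with an offset of 50 and to -4.51 in the deposited log2 values, which keep the background. Against AhR-d, Avil in AhR null was at least 25.8-fold lower with the offset of 16, at least 16.1-fold with 50 and at least 7.10-fold with no background correction, with differences of -5.84, -4.51 and -5.48 in the 3 batches and groups that did not overlap, as for 23.5% of all features. That comparison shares the AhR null arrays with the one that chose Avil.

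AhR-d against control asks whether the altered allele changes these genes, and it uses arrays that did not enter the choice on one side only, the control arrays being shared. Avil was 3.50-fold lower in AhR-d by the fitted means, a log2 difference of -1.81 (SE 0.41, 95% interval -2.68 to -0.93), with -1.16, -2.70 and -1.55 in the 3 batches. It did not pass the threshold in the limma fit without a batch term (adjusted p = 0.0927), and it passed with batch as a block (adjusted p = 0.00102). Avil also varied more among AhR-d cultures than nearly all features did, its SD of 1.07 standing at the 98.6th percentile. In raw signal the AhR-d arrays read 3575, 627 and 1209. Raw signal in batch 1 was therefore 1.12 times that of control, on an array whose mean raw signal was 684 against 324, while normalised signal was lower. Without AhR-d replicate 2 the difference was -1.18 (adjusted p = 0.354), and without AhR-d replicate 1 it was -2.17 (adjusted p = 0.0402).

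Levels of some markers of other blood cells differed between the genotypes. Of 12 neutrophil markers (among them S100a8, Elane and Prtn3), 0 were detected on the control arrays and on AhR-d replicate 1. On AhR-d replicates 2 and 3, 7 or 8 were detected, and on AhR null arrays 6 or 7. Their summed level, in linear normalised signal, was 335 to 368 in control, 349, 4923 and 5482 in AhR-d, and 1307 to 2090 in AhR null. Of 6 erythroid markers, 1 or 2 were detected on control, 3 to 5 on AhR-d and 5 on AhR null arrays, and their sum was 302 to 507 in control, 964, 2696 and 1184 in AhR-d replicates 1 to 3, and 1333 to 5969 in AhR null, above control on every array of both genotypes. The 7 megakaryocyte and platelet markers summed to 3383 to 4812 in control, 2570 to 4795 in AhR-d and 3510 to 4179 in AhR null, so these groups overlapped. Of the 4 tested, Vwf was called lower in AhR null than in control and Gp9 higher, where 5.8% and 6.56% of all features were. Gp9 was detected on 0 control, 1 AhR-d and 3 AhR null arrays, so it passed the filter only through the genotypes in which it was higher. The part of other cells in the Avil values was not tested, and in bulk RNA fewer cells of a type and less RNA per cell cannot be told apart.

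The 250 bases before the RefSeq start of Avil (GRCm38.p6, chr10:127000459-127000708, plus strand) are shown because Avil is the member with the widest range across genotypes. Capitals would mark a match to a searched motif.
Avil: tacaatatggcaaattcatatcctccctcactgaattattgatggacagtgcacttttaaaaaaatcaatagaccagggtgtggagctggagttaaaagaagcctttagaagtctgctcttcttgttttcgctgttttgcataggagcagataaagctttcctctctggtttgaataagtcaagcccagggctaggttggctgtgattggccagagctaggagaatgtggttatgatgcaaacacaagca
The motifs searched on both strands were GCGTG, the core of the element that AhR binds, TNGCGTG, a longer form that contains it, and the CArG box of the transcription factor SRF, which is known to control many actin genes. None of them occurred in the Avil window of 300 bases, which also covers 50 bases after the start. Of 32851 such windows in the RefSeq table, 32.4% held GCGTG, 5.07% held TNGCGTG and 1.63% held a CArG box. The absence of these letters says nothing about binding at other distances.

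Scin encodes scinderin, also called adseverin, a calcium-dependent filament-cutting protein known from secretory cells, where it acts on the actin layer under the membrane. Its level was 14.69, 14.63 and 14.48 in control, 14.72, 14.40 and 14.52 in AhR-d, and 13.85, 13.76 and 13.43 in AhR null batches 1 to 3. The 3 AhR null arrays lay below all 6 others, and control and AhR-d overlapped. Groups did not overlap, in either direction, for 34.3% of all features in AhR null against control and 23.5% against AhR-d. The Scin levels lie near the top of the normalised scale, which ends at 15.3, and such bright signals can be compressed.

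In AhR null against control, Scin differed by -0.92 (SE 0.15), 1.89-fold lower, with -0.84, -0.87 and -1.05 in the 3 batches. Against AhR-d it differed by -0.87 (SE 0.15), with -0.87, -0.65 and -1.09 in the batches. By size of the difference from control Scin, at -0.92, was the nearest to the remaining members of the 2 taken as AhR-dependent. Outside them Svil, at 0.51, came next by size, followed by Flii at -0.47, with each gene taken at its brightest kept probe. The dimmer Capg probe, which does not represent its gene, stood at -0.72. Avil and Scin were 2 of 5 measured members past the threshold of the fit in AhR null against control and against AhR-d. The choice of members fixed the first count and the second reuses the AhR null arrays, so nothing is read from either. For reference, 12.4% of all features were called in AhR null against control (5.8% lower and 6.56% higher, 432 and 489 features), and 2.48% against AhR-d (1.66% lower, 124 against 61 higher). The split between directions rests on the scaling. Against control it was 90 lower and 831 higher in the deposited log2 values and 86 and 837 with median scaling, and against AhR-d 27 and 140, and 35 and 88. The size of the Scin difference depended on how arrays were scaled. Raw signal in AhR null was 1.02, 0.654 and 0.767 times that of control in batches 1 to 3, on AhR null arrays that were brighter as a whole. In the deposited log2 values, centred on array medians, the difference from control was -0.60. Those values set the median of all features 0.29 higher in AhR null, and relative to that median Scin stood at -0.89, the same as in the quantile-normalised values.

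In AhR-d against control Scin differed by -0.05 (SE 0.15, adjusted p = 0.974), with a 95% interval from -0.36 to 0.27. A difference beyond 1.29-fold lower or 1.20-fold higher lies outside that interval. Of the 5 measured members 0 passed the threshold in this comparison in the fit without a batch term, where 0.336% of all features did (0.0537% lower). With batch as a block 1 member, Avil, passed, beside 118 of all features.

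**Figure D2:**
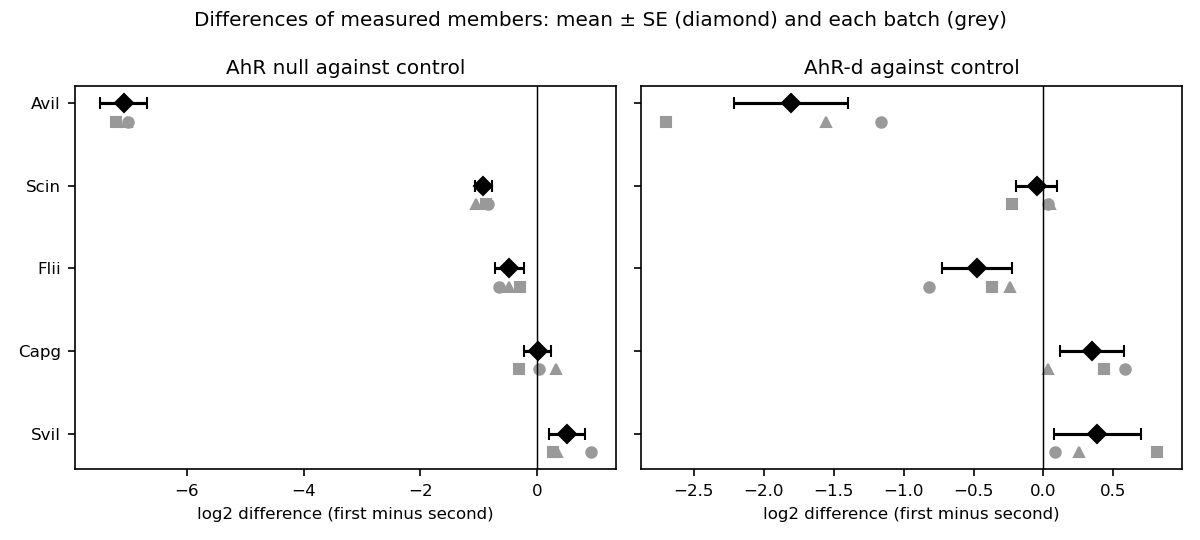
Log2 difference (x axis) of the 5 measured members (y axis) in AhR null against control (left) and AhR-d against control (right), as the fitted mean ± SE (black diamond) and in each culture batch (grey, batch 1 circle, 2 square, 3 triangle); the 2 panels share the control arrays and differ in scale. Avil is at -7.08 on the left and -1.81 on the right, while Scin is at -0.92 and -0.05.

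Scin lies on chromosome 12, as Ahr does, with 13 protein-coding genes annotated between them, whereas Avil lies on chromosome 10 and Capg, Flii, Gsn and Vil1 on chromosomes 6, 11, 2 and 1. For Scin, an effect of the receptor and one of DNA that travels with the altered Ahr allele cannot be told apart here. Genes beside the 2 members were looked at after their values were seen. The 3 nearest measured genes on each side are given. Between Ahr and Scin these were Tspan13, Bzw2 and Ankmy2, the only ones measured there, with differences of 0.42, 0.60 and 0.42 in AhR null, of which Bzw2 passed (adjusted p = 0.0426). On the far side of Scin, Ifrd1 fell by 1.25 in AhR null (adjusted p = 0.0215) and Zfp277 fell by 1.92 in AhR-d (adjusted p = 0.000792). In AhR-d Ifrd1 differed by -0.28 (adjusted p = 0.912), and in AhR null Zfp277 differed by -0.05 (adjusted p = 0.886). Lrrn3 differed by -0.16 in AhR null (adjusted p = 0.825). Around Avil, Rxylt1 rose by 0.73 in AhR null (adjusted p = 0.0307), and Mon2, Ctdsp2, Tsfm, Mettl1 and Tspan31 differed by -0.20, -0.49, -0.27, -0.02 and 0.11, with adjusted p-values from 0.135 to 0.983.

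The 250 bases before the RefSeq start of Scin (GRCm38.p6, chr12:40134229-40134478, minus strand) are printed beside those of Avil for comparison of the 2 members, with the GCGTG match in capitals.
Scin: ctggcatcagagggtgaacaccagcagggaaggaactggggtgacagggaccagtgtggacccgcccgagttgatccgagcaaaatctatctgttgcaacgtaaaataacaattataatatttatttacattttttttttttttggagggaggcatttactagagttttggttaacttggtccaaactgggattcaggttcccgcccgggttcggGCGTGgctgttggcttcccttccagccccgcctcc
That match begins 35 bases before the start and is not preceded by the letters of the longer form. Of the 6 members with a window (8 windows in all, Svil having none in the table), GCGTG occurred in the Scin window and in 1 of 3 Gsn windows, TNGCGTG in none, and the CArG box in the Vil1 window alone. A match of this kind is a description of the letters, and GCGTG is common among all windows, as given above.

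Capg encodes a capping protein that covers filament ends without cutting them and is abundant in macrophages. Its 2 probes, annotated to different transcripts, gave different values. The brighter probe read 10.34, 10.19 and 9.96 in control, 10.92, 10.62 and 9.996 in AhR-d, and 10.37, 9.88 and 10.28 in AhR null, and all groups overlapped. The dimmer probe read 8.91, 9.17 and 8.12 in control, 8.30, 9.32 and 8.29 in AhR-d, and 8.21, 8.04 and 7.78 in AhR null, with lower AhR null values in 3 of 3 batches but an overlap with control.

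In AhR null against control the brighter Capg probe differed by 0.01 (SE 0.23) and the dimmer by -0.72 (SE 0.31), so the mean of both gave -0.36. In AhR-d against control they differed by 0.35 (SE 0.23, adjusted p = 0.796, 95% interval -0.14 to 0.84) and by -0.09 (SE 0.31, adjusted p = 0.975 with every probe tested on its own). Monocyte and macrophage markers, 11 with a probe, summed to 1252 to 2835 in control, 1922, 7513 and 6023 in AhR-d batches 1 to 3, and 2233 to 4070 in AhR null. The markers did not move together. Of 5 tested in AhR null against control, Apoe (3.69) and Lyz2 (3.06) were called higher, where 6.56% of all features were. Cx3cr1 (-1.60) was called lower, where 5.8% were, and 2 were not called. The part of other cells in the Capg values was not tested.

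Flii encodes flightless I, which joins leucine-rich repeats to gelsolin domains and also acts in the nucleus as a partner of transcription factors. It read 8.42, 8.70 and 8.41 in control, 7.60, 8.34 and 8.17 in AhR-d, and 7.77, 8.41 and 7.92 in AhR null. All arrays of both altered genotypes lay below all control arrays, the nearest pair being 8.405 in AhR null and 8.408 in control. Groups did not overlap, in either direction, for 34.3% of features in AhR null against control and for 10.5% in AhR-d against control. The share of features with both altered genotypes below control was not counted. In AhR-d Flii differed from control by -0.47 (SE 0.25, adjusted p = 0.724, 95% interval -1.01 to 0.07). In AhR null it differed by -0.47 (SE 0.25), a direction that turned to 0.10 in the deposited log2 values and 0.19 with median scaling; relative to the median of all features, it stood at -0.19 and -0.34 there.

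Svil encodes supervillin, which links actin and myosin to the plasma membrane. Of its 5 probes 4 were not detected on any array. The remaining probe was detected on 0 control, 2 AhR-d and 3 AhR null arrays, so it passed the filter only through the genotypes in which it was higher. It read 5.77, 5.72 and 5.94 in control, 5.86, 6.53 and 6.19 in AhR-d, and 6.71, 5.98 and 6.28 in AhR null. The AhR null arrays lay above all control arrays by a narrow margin, at least 1.18-fold higher by the bound. These 2 groups did not overlap, in either direction, for 34.3% of all features. In the deposited log2 values the Svil difference was 0.28, or -0.0050 relative to the median of all features. In AhR-d the difference from control was 0.39 (SE 0.31), given without a test for the same reason, and the AhR-d and control arrays overlapped.

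**Figure D3:**
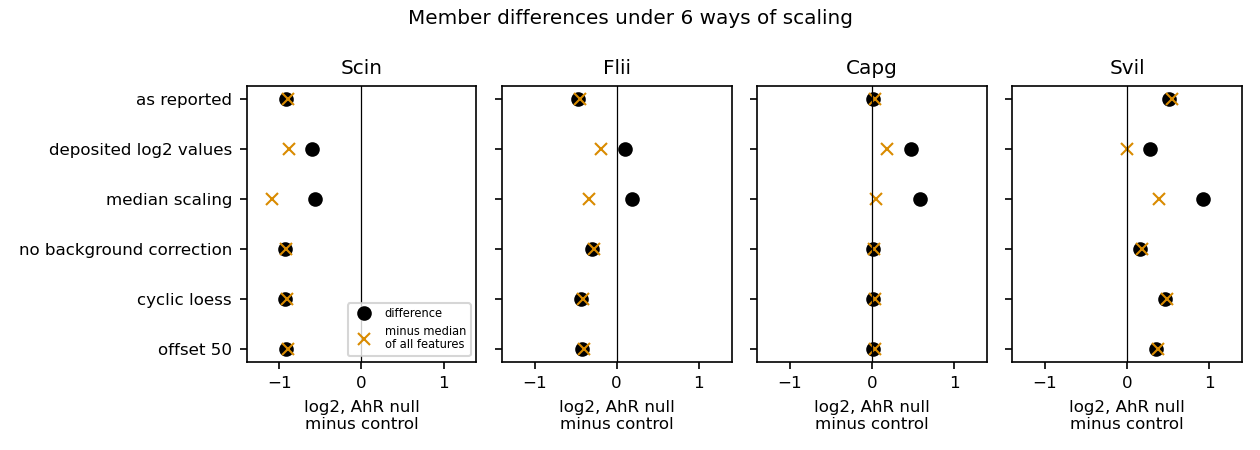
Log2 difference in AhR null against control (x axis) of Scin, Flii, Capg (brighter probe) and Svil under 6 ways of scaling the arrays (y axis), as computed (black points) and after subtraction of the median difference of all features (orange crosses). Scin stays below 0 throughout, from -0.94 to -0.56, and Flii crosses 0 in the deposited log2 values and with median scaling, where the median of all features rose by 0.29 and 0.53.

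Genes with the nearest profiles to each member were found as the smallest root-mean-square distance between log2 signals over 9 arrays, each gene centred on its own mean. For Avil these were Asphd2 at 0.72 log2 units, Hgfac, which encodes an activator of hepatocyte growth factor, at 1.11, Hic1, a transcriptional repressor, at 1.12, Cd96, an immune receptor, at 1.32 and Spns3 at 1.38. In AhR null their levels differed from control by -3.98 to -5.78, and in AhR-d by -1.67 for Asphd2, -1.38 for Hgfac, -0.81 for Hic1, -1.54 for Cd96 and -0.36 for Spns3. Avil had the largest difference of 7449 features in AhR null against control, so smaller differences there in its nearest genes were fixed in advance. Scin was nearest to Plscr1 at 0.13, Mcm6 at 0.13 and Malt1 at 0.14. The 3 genes nearest to Capg, Flii or Svil lay at 0.12 to 0.18, beside small differences between genotypes in these members. For Svil they included Twf2 at 0.18, which encodes an actin monomer-binding twinfilin.

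**Figure D4:**
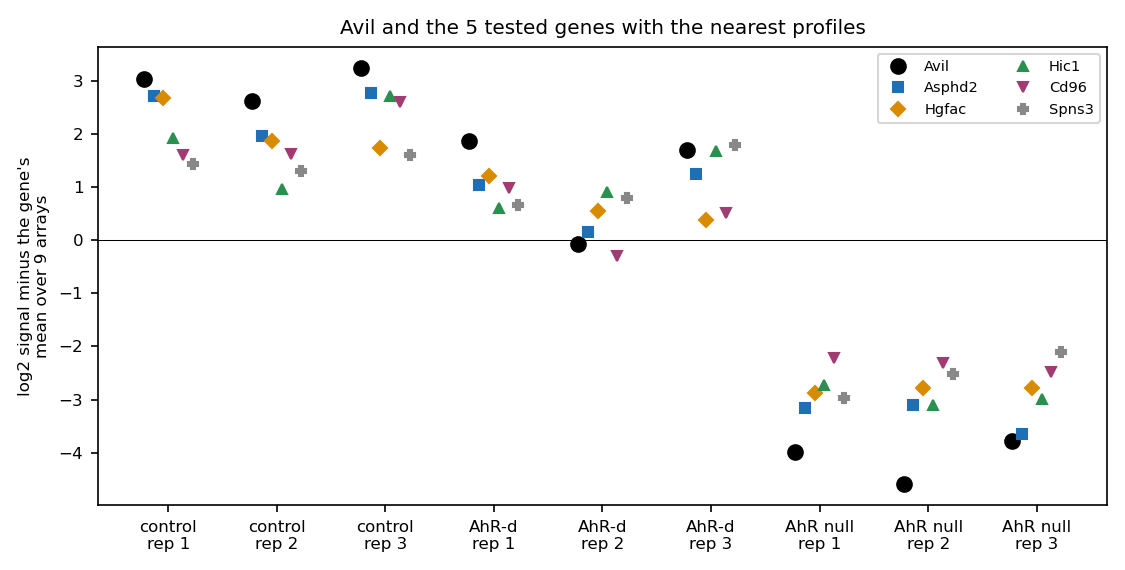
Log2 signal of Avil and of the 5 genes with the nearest profiles (y axis, each gene centred on its mean over 9 arrays) on each array (x axis). All 6 genes are lowest on the 3 AhR null arrays.

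Of the AhR battery listed for scale, 5 genes were measured (Ahrr, Aldh3a1, Nqo1, Cyp1b1 and Tiparp), and all 5 were called lower in AhR null, where 5.8% of all features were, with differences from -3.70 to -1.16. Cyp1b1 was detected on control arrays alone, so it passed the filter only through the group in which it was higher. In AhR-d against control none of the 5 was called, where 0.336% of all features were. The differences were all below 0, from -1.93 to -0.06. Ahrr, at -3.70 in AhR null, was detected on 0 AhR null arrays, so background limits its difference as it does that of Avil. Background also limits both differences of Cyp1b1. The highest mean control level of the 5 genes was 9.07, in Ahrr, against 12.20 in Avil, which left Avil more room to fall. Avil, at -7.08 and -1.81, lay beyond the range of the 5 genes in AhR null and within it in AhR-d. For these reasons the sizes in AhR null do not rank the effect on Avil against that on the battery.

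Among other genes that act on actin, none differed as far as Avil. Over 8 lists of actins, monomer binders, severing and capping proteins, nucleators, bundlers and headpiece proteins, 65 genes were measured, and 6 of them (9.23%) were called between AhR null and control cells, 3 in each direction, against 12.4% of all features, so the share among actin genes was no higher than the background. Pfn2, which encodes a profilin that binds actin monomers, rose by 1.24 (SE 0.30, adjusted p = 0.0159), Capzb, a subunit of the capping protein, rose by 0.95 (SE 0.22, adjusted p = 0.0137), and Nckap1, a subunit of the WAVE complex, rose by 0.82 (SE 0.24, adjusted p = 0.0379). Abi3, another WAVE complex protein, fell by 1.06 (SE 0.18, adjusted p = 0.0021), Lcp1, which encodes the filament bundler L-plastin, fell by 0.79 (SE 0.19, adjusted p = 0.0133), and Coro1a, which encodes coronin 1A, fell by 0.57 (SE 0.14, adjusted p = 0.019). The Coro1a call rests on the brightest of 4 probes, and the others differed by 0.28, -0.03 and -0.52.

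The median difference of 14 severing and depolymerising genes was -0.21, of 6 capping genes 0.51, of 4 monomer binders -0.08, of 18 genes of the Arp2/3 complex and its activators 0.13, of 5 formins and other nucleators 0.02 and of 14 bundling genes -0.14, beside -0.03 over all features. The actin list had 3 measured genes, Actb, Acta2 and the actin-related Actr1a, with a median of -0.26 and 0 called. Of these, Acta2 was detected on only 1 control, 2 AhR-d and 1 AhR null array. Of the list drawn up for headpiece proteins, only Tln1, which encodes talin 1, was measured, at 0.06. Mouse talin 1 is not known to carry this headpiece. With batch as a block 14 of the 65 genes were called, 8 higher and 6 lower, including these 6, beside 1580 of 7449 features in all. With array brightness as a covariate 0 were, beside 284 of all features, and the adjusted p-values of the 6 ran from 0.0547 to 0.263. With 1 array left out, only Abi3 kept its call throughout, and without AhR null replicate 2 the calls were 2, Abi3 and Capzb. In the deposited log2 values and with median scaling Abi3, Lcp1 and Coro1a lost their calls, with Abi3 at -0.45 (adjusted p = 0.318) and -0.48 (adjusted p = 0.394). Against AhR-d, Abi3 fell by 0.82 in AhR null (adjusted p = 0.0307) and was the only one of the 65 called (1.54%), where 2.48% of all features were. In AhR-d against control 0 of the 65 passed in limma, where 0.336% of all features did.

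**Figure D5:**
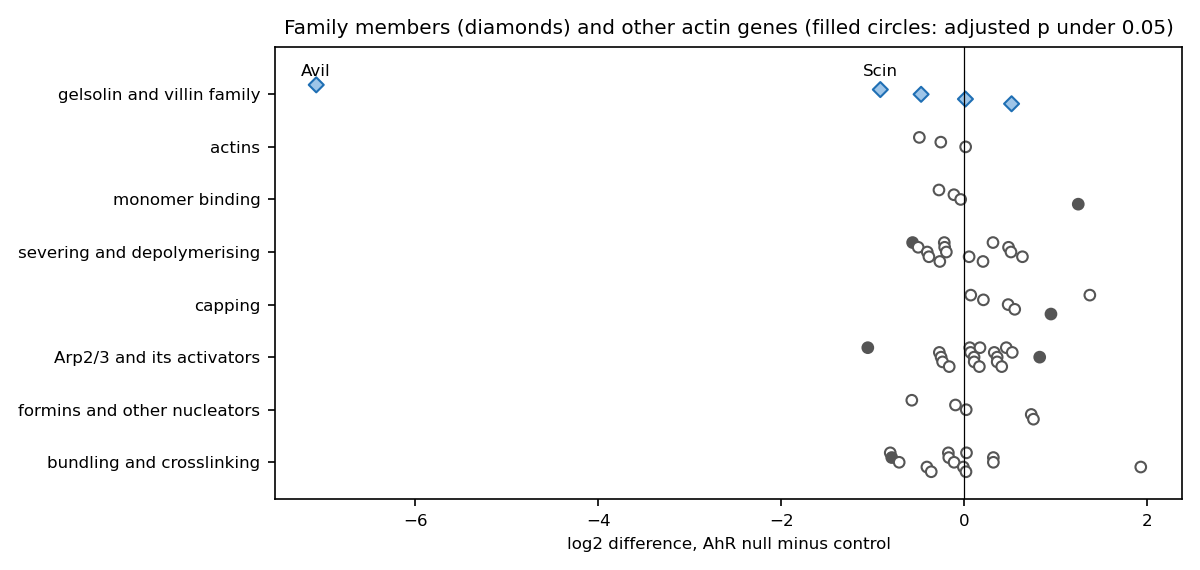
Log2 difference in AhR null against control (x axis) of the measured family members (blue) and of other actin genes by list (grey circles). Members are diamonds, and filled circles are actin genes with adjusted p under 0.05. The only measured gene of the headpiece list, Tln1 at 0.06, is not drawn. Avil at -7.08 lies far from every other point, and the other actin genes lie between -1.06 and 1.93. The value of 1.93 is that of Cnn3, detected on 0 control, 1 AhR-d and 2 AhR null arrays, so background limits it.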

How the data were processed

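The authors deposited linear signal intensity per probe with no scaling between arrays, made with GenomeStudio (version not given) per the submitters' processing notes, and, per the file headers, a detection p-value beside each intensity. The deposited series table holds log2 values equal to log2 intensity plus 1 constant per array (within 5.11e-05), which places array medians at 8. A further deposited table of probes chosen by the study holds no member and was not used.

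Intensities were background-corrected with normexp from the detection p-values, given an offset of 16 and quantile-normalised (neqc, limma 3.58.1, R 4.3.3). Of 25697 probes 9777 passed the filter of detection p under 0.01 on at least 3 of 9 arrays. Gene symbols came from the platform annotation (1719 probes unnamed), and 23962 matched RefSeq genes of GRCm38.p6 with 0 symbols changed; that table was used for names, chromosomes and gene order. The brightest kept probe represented a gene, which left 7449 features (6864 named genes). All 3 comparisons came from 1 limma fit over 9 arrays (6 residual degrees of freedom, variance trend on mean signal), and a call needed a p-value under 0.05 after Benjamini-Hochberg adjustment. The steps were tested on simulated data. The number of arrays limits the precision.

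Members, lists of actin genes and cell markers, the motifs and the rule for named genes were chosen with earlier results of these data known. The rule named every member, the 5 nearest profiles of Avil and 3 of each other measured member, and up to 4 called genes per list. The labels state shared batches, and deviations from genotype means of arrays from 1 batch correlated at 0.11 to 0.36 (9 pairs) against -0.36 to 0.07 between batches (18 pairs), so batch pairs the arrays; the blocked fit is an alternative. Other alternatives were other scalings, offsets, filters, probe summaries, samples, variance settings, a brightness covariate and leaving out each array. Promoter sequences are from RefSeq (GRCm38.p6).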

Additional observations from a re-analysis of the deposited data

How the results depend on the processing

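Counts of members past the threshold in AhR null against control, and against AhR-d, are no support, since the choice of members used the AhR null arrays. The count in each was 2, and 1, Avil, with the deposited log2 values and with median scaling, where Scin against AhR-d stood at -0.55 and -0.59; with 1 array left out it was 2. In AhR-d against control 1 member, Avil, was called in place of 0 with no filter (adjusted p = 0.035) and with the replicate block, and the count ran from 0 to 1 with 1 array left out, the 1 coming without AhR-d replicate 1. The block changed no other call of a member. Differences that were not called changed sign as follows. Scin in AhR-d against control was 0.031 with median scaling and ran from -0.13 to 0.021 with 1 array left out. In AhR null against control, Capg, at 0.011, was -0.36 with the mean over probes and -0.23 with the brightness covariate and ran from -0.091 to 0.16 with 1 array left out, and Flii turned in the 2 scalings given above. In AhR null against AhR-d, Capg was 0.079 in the deposited values and 0.079 with median scaling, Flii was 0.32, 0.48, 0.024 and 0.053 with the deposited values, median scaling, cyclic loess and the brightness covariate and ran from -0.22 to 0.15 with 1 array left out, and Svil ran from -0.061 to 0.30. Coro1a, called lower in AhR null, ran from -0.66 without control replicate 1 to 0.28 without AhR-d replicate 3, where another of its probes became the brightest.

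Over all features, AhR null against control gave 921 calls, 1580 with the replicate block, 284 with the brightness covariate and 492 to 1001 with 1 array left out. AhR-d against control gave 25, and 9 with deposited values, 41 with median scaling, 7 with no background correction, 11 with the mean over probes, 10 with the 2 genotypes alone, 118 with the replicate block, 7 with the brightness covariate and 4 to 46 with 1 array left out. AhR null against AhR-d gave 185, and 123 with median scaling, 502 with the replicate block, 106 with the brightness covariate and 82 to 243 with 1 array left out. The cause of these shifts was not tested. Signal over background limits Gsn, Vil1, Svil and the AhR null level of Avil.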
